A study of Homo sapiens with 6 samples.

Results

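The ADAM and ADAMTS genes described here encode 6 membrane-anchored metalloproteases, ADAM9, ADAM10, ADAM12, ADAM15, ADAM17 and ADAM19, and 4 secreted ones, ADAMTS1, ADAMTS4, ADAMTS5 and ADAMTS8. They were taken by gene symbol from the table of counts, and all 10 of the 10 symbols matched a row among its 28395 Entrez gene IDs. RNA came from TC28a2, a line of immortalised human chondrocytes, harvested 48 h after it was transfected with either a control vector or a ZEB1 overexpression vector, with 3 libraries for each vector. No other agent is named in the labels, and every library comes from the same cell line. ZEB1 is a zinc finger transcription factor that binds E-box sequences and is best known as a repressor in epithelial to mesenchymal transition. The comparison asks which transcripts differ when ZEB1 is overexpressed, within work on cell senescence in osteoarthritis.

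ADAM proteases carry a metalloprotease and a disintegrin domain outside the cell, and most of them cut the extracellular part off other membrane proteins, a step called shedding. ADAM10 and ADAM17 are the main sheddases, acting on Notch receptors, cadherins, growth factor precursors and TNF. ADAMTS proteases are secreted, bind the matrix through thrombospondin repeats and cut proteoglycans. ADAMTS4 and ADAMTS5 are the aggrecanases of cartilage, the enzymes known for removing aggrecan in osteoarthritis.

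Totals were 5359200 to 5878640 counts per control library and, by replicate, 1277632, 1621270 and 3316228 counts per ZEB1 library, which puts a floor of 3 counts at 0.481 to 0.547 CPM (counts relative to the TMM-scaled library total) for the control vector and 2.67, 1.93 and 0.894 CPM in the ZEB1 libraries. Separate cultures are not stated for the replicates in the labels, and the p-values speak for the spread among these libraries alone, and that spread may be technical. ZEB1 itself had 20.8 to 32.6 CPM in control libraries against 12267, 14047 and 6894 CPM in the ZEB1 libraries by replicate. In log2 CPM each ZEB1 library correlated more closely with the controls than with the other libraries of its own group. ZEB1 replicates 1 and 2 correlated with each other at 0.854 and with replicate 3 at 0.875 and 0.899, while the correlation with the controls was 0.881 to 0.885, 0.906 to 0.909 and 0.948 to 0.951 for replicates 1, 2 and 3. The correlation with the controls rose with the total of the ZEB1 library. Counting error is larger in shallow libraries, so depth and likeness in expression cannot be told apart in these coefficients. Replicate 3, the deepest ZEB1 library, lay nearest the controls, and members with counts are given with and without it. Of 16 chondrocyte markers only SOX9 had enough counts to be tested, and COL9A1 and CNMD had no count, so most defining markers of the labelled cell type were absent or too low to test. The summed level of 6 leukocyte markers was 54.5 to 58.7 CPM in control libraries against 36.0 to 48.9 CPM in ZEB1 libraries, that of 6 endothelial markers 2.73 to 3.59 and 5.33 to 14.8 CPM, and that of 6 epithelial markers, among which KRT5 had no count, 0.816 to 2.73 and 1.78 to 2.09 CPM. The leukocyte sum came almost wholly from LAPTM5, LCP1 and CORO1A. PTPRC, CD53 and CD74 had at most 2, 2 and 6 counts in a library. The part of these marker lists in the results was not tested.

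Because the factor under study binds E-boxes, the promoters of the members were searched for the letters CAGGTG on either strand, which read CACCTG on the other, in the 250 bases before to 50 bases after the start site. RefSeq sequences (GRCh38.p14) were at hand for 5 members, ADAM10, ADAM12, ADAM15, ADAM17 and ADAM19. The letters occurred in 2 of these 5, ADAM17 and ADAM19, against 20.6% of all 35116 promoter windows and 17.8% of the 13331 windows of tested genes. The ADAM19 promoter is shown because ADAM19 was the tested member with the largest fold change between the vectors. It runs over chr5:157575776-157576025 on the minus strand, the 250 bases before the start site, with the match in capitals beginning at base -184 (chr5:157575954-157575959). G and C make up 76.4% of it.
ADAM19 promoter: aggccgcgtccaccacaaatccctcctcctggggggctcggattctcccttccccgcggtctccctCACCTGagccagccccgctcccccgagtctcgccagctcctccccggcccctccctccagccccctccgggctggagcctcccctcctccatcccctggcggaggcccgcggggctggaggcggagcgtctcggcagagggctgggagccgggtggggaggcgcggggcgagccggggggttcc
The match in ADAM17 is the other one found. It lies after the start site, beginning at base 42 (chr2:9555784-9555789, minus strand, within the printed window chr2:9555781-9555801).
ADAM17 site: ctttggtaacgcCACCTGcac
A match of letters describes the sequence and does not show that ZEB1 binds there.

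In the control libraries the membrane-anchored members and the secreted ADAMTS1 had the higher levels, and ADAMTS4, ADAMTS5 and ADAMTS8 were at or near 0. Levels between genes are compared per kilobase of merged coding-transcript exons (GENCODE v29). On that scale ADAM9 had 11.3 ± 2.96 CPM per kb and ADAM19 10.2 ± 0.467 CPM per kb (SD, n = 3), followed by ADAM17 at 7.52 ± 0.870, ADAMTS1 at 5.53 ± 2.48, ADAM10 at 4.07 ± 0.543, ADAM15 at 3.89 ± 1.22 and ADAM12 at 2.15 ± 0.510. ADAMTS5 had 0.0958 ± 0.123 CPM per kb and ADAMTS8 0.0455 ± 0.0787, and ADAMTS4 had no count. Of the 8 neighbouring pairs in this order 2 did not overlap, ADAM19 above ADAM17 and ADAM12 above ADAMTS5, and the remaining neighbours overlapped in their 3 control values. DRUG-seq usually reads the poly(A) end of transcripts, in which case length should not be divided out. Without that division ADAM19 came before ADAM9 and ADAM10 before ADAM17, and again 2 of the 8 neighbouring pairs did not overlap.

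**Figure D1:**
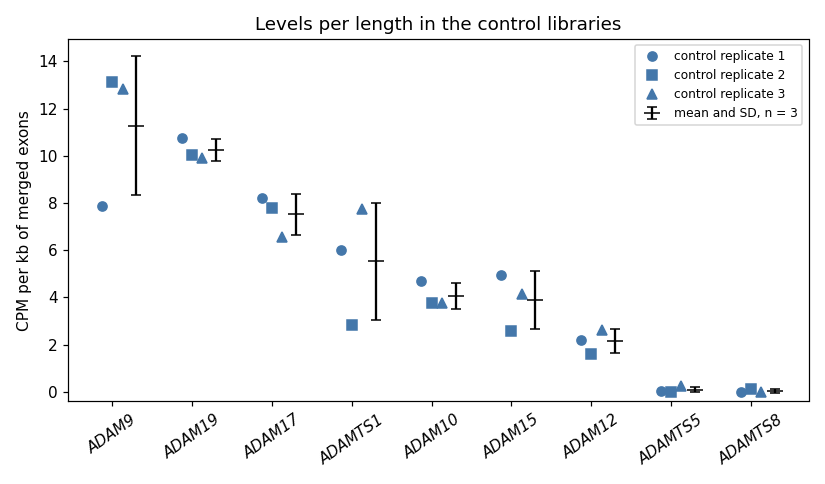
Level of 9 members in the 3 control vector libraries, in CPM per kb of merged exons on a linear axis, with 1 symbol per replicate and the mean and SD beside them (ADAMTS4, without a count, is left out). ADAM9 and ADAM19 lead at 11.3 and 10.2 CPM per kb, and ADAMTS5 and ADAMTS8 lie near 0.

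Of the 10 members 7 passed the low-count filter, and 0 of these 7 passed an edgeR adjusted p of 0.05, against 0.00883% of the 11329 genes tested, which is ZEB1 itself. At an unadjusted p of 0.05 there were 0 members higher (5.83% of all tested genes) and 1 lower (3.57%), ADAM19. Limma-voom called 0 members (0.512% of all tested genes) and its form with quality weights, chosen after seeing the data, 0 (1.36%). DESeq2 left all 7 without an adjusted p through its own filter on mean counts. The log2 fold change was below 0 in 4 of the 7, against 51.5% of all tested genes. The median over the 7 was -0.057 beside -0.014 over all genes, and it did not keep its sign on leaving out single libraries (-0.37 to 0.16).

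ADAM19, the sheddase also known as meltrin beta and linked to neuregulin processing, was the member whose groups did not overlap. The gene (Entrez 8728) spans chr5:157477304-157575775 on the minus strand, in GRCh38.p14 as for all coordinates here. It had 473, 387 and 428 counts, or 75.9, 70.6 and 69.8 CPM, in control replicates 1, 2 and 3. With the ZEB1 vector it had 36, 66 and 176 counts, or 32.0, 42.4 and 52.4 CPM. All 3 ZEB1 libraries lay below all 3 controls, a pattern shown by 8.16% of tested genes (6.96% lay wholly above, and 0 members did). The mean was 72.1 ± 3.29 CPM in control libraries against 42.3 ± 10.2 CPM in ZEB1 libraries (SD, n = 3). The log2 fold change was -0.74 (SE 0.22, 95% interval -1.20 to -0.27), which is 0.600 of the control level with an interval of 0.435 to 0.828. By unadjusted p (0.00354) it ranked 166 among the 11329 genes, and its edgeR adjusted p was 0.241, so it did not pass. Its fold change was below 0 in 17 of 17 alternatives, with adjusted p from 0.0310 to 1.00 where the tool gave it. It passed in the fit without ZEB1 replicate 3 (log2 fold change -0.95, edgeR adjusted p 0.0310), where 3.38% of 12095 genes passed. The library nearest the controls in ADAM19 was also the deepest and the lowest in ZEB1 of the 3 ZEB1 libraries, so that effects of depth and of ZEB1 dose cannot be told apart. With all libraries thinned to 1277632 counts the log2 fold change was -0.66 (edgeR adjusted p 0.327). In bulk RNA, fewer cells with a transcript and less of it per cell cannot be told apart.

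**Figure D2:**
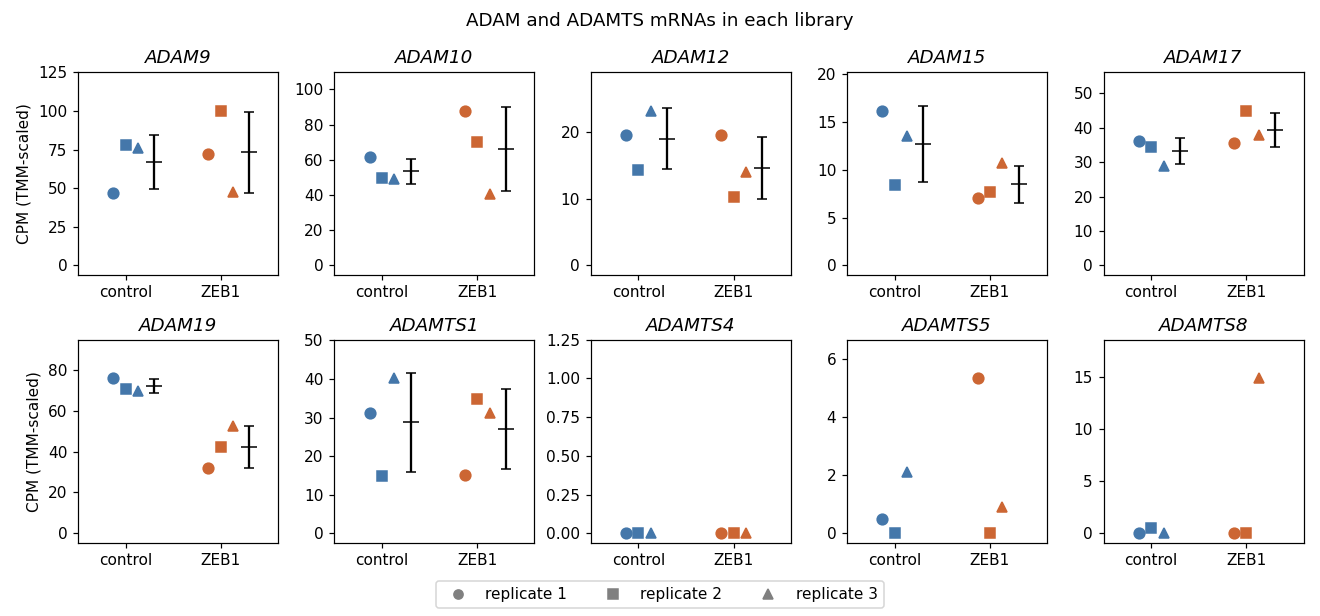
CPM (TMM-scaled, linear axes that differ between panels) of the 10 members in each control and ZEB1 library, with 1 symbol per replicate and, for the 7 tested members, the mean and SD (n = 3). ADAM19 is the panel in which the ZEB1 libraries (32.0 to 52.4 CPM) all lie below the controls (69.8 to 75.9 CPM), and ADAMTS8 has its counts in ZEB1 replicate 3.

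ADAM12, ADAM15 and ADAM9 showed overlapping groups. ADAM12 (chr10:126012391-126388477), which has a long membrane-bound and a short secreted form and cuts IGF-binding proteins, had 19.6, 14.2 and 23.2 CPM in control libraries against 19.5, 10.3 and 14.0 CPM in ZEB1 libraries. Its log2 fold change was -0.40 (95% interval -1.20 to 0.40, edgeR adjusted p 0.813), or -0.39 without ZEB1 replicate 3. That interval runs from 0.435 to 1.32 times the control level, so a difference as large as that of ADAM19 was within its error. With thinning the value was -0.049. ADAM15 (chr1:155051316-155062775), a disintegrin-containing protease that binds integrins, had 16.2, 8.39 and 13.5 CPM in control libraries against 7.11, 7.72 and 10.7 CPM in ZEB1 libraries. ZEB1 replicates 1 and 2 lay below every control, and replicate 3 lay above control replicate 2. The log2 fold change of ADAM15 was -0.54 (95% interval -1.49 to 0.41, edgeR adjusted p 0.784), or -0.78 without ZEB1 replicate 3. ADAM15 was counted shallowly, with 8 and 12 counts in ZEB1 replicates 1 and 2, and its locus on chromosome 1 lies wholly within the spans of DCST1-AS1 and of the readthrough gene ADAM15-EFNA4. Strand use in the counting is not given in the sources used here, so reads of such partners could not be told apart. DCST1-AS1 itself was listed with 0 to 10 counts.

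ADAM9 (chr8:38996973-39105261), a broadly expressed sheddase, had 46.7, 77.8 and 76.2 CPM in control libraries against 72.0, 100.3 and 47.7 CPM in ZEB1 libraries. Each group had a library near 47 CPM and others above 70 CPM, and the log2 fold change was 0.11 (95% interval -0.43 to 0.65, edgeR adjusted p 0.934). Its sign was not stable: it was -0.10 without control replicate 1, -0.20 without ZEB1 replicate 2, -0.023 when only library size was scaled for and 0.37 without ZEB1 replicate 3.

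ADAM10 and ADAM17, the principal sheddases, had fold changes above 0 that did not pass. ADAM10 (chr15:58588809-58749707) had 61.6, 49.4 and 49.1 CPM in control libraries against 88.0, 70.1 and 40.5 CPM in ZEB1 libraries. ZEB1 replicates 1 and 2 lay above every control and replicate 3 below every control. Its log2 fold change was 0.27 (95% interval -0.26 to 0.80, edgeR adjusted p 0.809), 0.55 without ZEB1 replicate 3 (adjusted p 0.191) and 0.0099 without ZEB1 replicate 1. ADAM17 (chr2:9488486-9555830), the enzyme that releases TNF and many EGF receptor ligands, had 36.3, 34.5 and 28.9 CPM in control libraries against 35.5, 45.0 and 37.8 CPM in ZEB1 libraries. The groups overlapped through control replicate 1 and ZEB1 replicate 1. Its log2 fold change of 0.25 (95% interval -0.28 to 0.78, edgeR adjusted p 0.828) allows 0.824 to 1.72 times the control level, and was 0.28 without ZEB1 replicate 3. ADAM17 overlaps IAH1 in the RefSeq table over 23923 of its 67345 bp. IAH1 was listed with 39 to 60 counts for the control vector and 4 to 30 in the ZEB1 libraries.

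**Figure D3:**
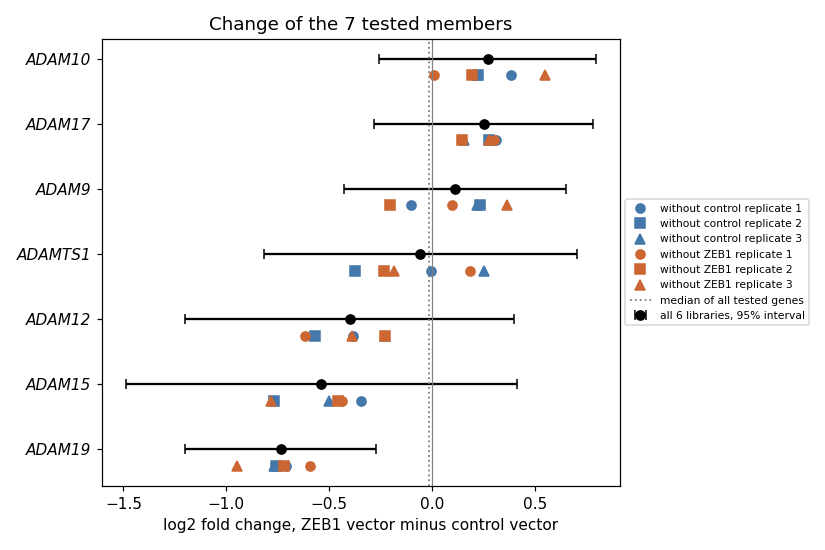
Log2 fold change (ZEB1 vector minus control vector) of the 7 tested members, with the 95% interval from all 6 libraries in black and, under each, the value on leaving out single libraries. The interval of ADAM19 (-1.20 to -0.27) is the one that does not reach 0, and the points of ADAM9 and ADAMTS1 fall on both sides of 0.

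Among the secreted proteases ADAMTS1 (chr21:26835755-26845409) was the tested one. It cuts versican and aggrecan, and had 195, 81 and 246 counts in the controls (31.3, 14.8 and 40.1 CPM) and 17, 54 and 105 for the ZEB1 vector (15.1, 34.7 and 31.3 CPM). Control replicate 2 and ZEB1 replicate 1 were low, and the other 4 libraries lay between 31.3 and 40.1 CPM. The log2 fold change was -0.057 (95% interval -0.82 to 0.71, edgeR adjusted p 0.981), -0.18 without ZEB1 replicate 3, 0.19 without ZEB1 replicate 1 and 0.25 without control replicate 3, so no direction can be given.

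The aggrecanases themselves were barely counted. ADAMTS4 had 0 counts in all 6 libraries, 0 of 23285721, which allows up to 0.129 CPM over the pooled, unscaled libraries. ADAMTS5 had 3, 0 and 13 counts for the control vector and 6, 0 and 3 for the ZEB1 vector, so that 13 of the 16 control counts came from replicate 3. Per total, the ratio of its summed counts (ZEB1 over control) was 1.54 with an exact 95% interval of 0.602 to 3.71, and 2.21 (0.708 to 5.94) without ZEB1 replicate 3. Such intervals and floors cover counting error only and treat reads as independent. At these counts a change in ADAMTS5 mRNA within these intervals was not detectable, and ADAMTS4, without a count, gave no ratio. ADAMTS4 spans chr1:161184302-161199054, and ADAMTS5 (chr21:26917922-26967088) lies 72512 bp from ADAMTS1.

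ADAMTS8 (chr11:130404923-130428609), a further member of the aggrecanase family, was counted almost wholly in ZEB1 replicate 3. It had 0, 3 and 0 counts for the control vector and 0, 0 and 50 for the ZEB1 vector, the last being 14.9 CPM. Per total the ratio of summed counts was 45.8 (exact 95% interval 14.8 to 229, counting error only), and it rests on that library: ZEB1 replicates 1 and 2 together had 0 counts of 2898902. edgeR called ADAMTS8 when no low-count filter was applied (log2 fold change 4.72, adjusted p 0.0485), where 0.693% of 18319 genes passed. It was the only gene in the table with at least 50 counts in 1 library and at most 3 in each of the other 5. These cut-offs are its own highest and second-highest counts, set after its values were seen, so ADAMTS8 met them by construction. They also do not allow for the unequal library totals. ADAMTS15, which lies 20035 bp away on chromosome 11, had 8, 4 and 12 counts for the control vector and 0, 1 and 0 for the ZEB1 vector.

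Summed over the 10 members the level was 287.9, 270.2 and 303.0 CPM in control libraries against 274.6, 310.6 and 250.2 CPM in ZEB1 libraries, so the groups overlapped. Within the sum, the share of ADAM19 differed between the groups. ADAM19 made up 26.4%, 26.1% and 23.0% of the summed CPM in the control libraries and 11.7%, 13.7% and 21.0% in the ZEB1 libraries, by replicate. The ratio of ADAM12 plus ADAM19 to ADAM10 plus ADAM17 was 0.975 to 1.19 for the control vector and 0.417, 0.458 and 0.848 for the ZEB1 vector. Neither range overlapped between groups, and both carry the ADAM19 values already given and were chosen with these in view. The ratio of ADAM10 to ADAM17 was 1.70, 1.43 and 1.70 for the control vector and 2.48, 1.56 and 1.07 for the ZEB1 vector, which overlapped.

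**Figure D4:**
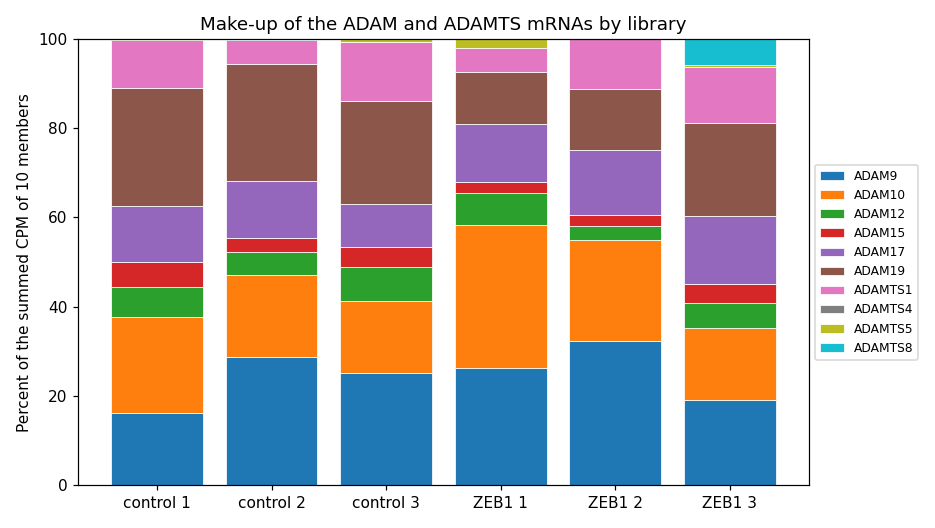
Percent of the summed CPM of the 10 members that each member makes up, in each of the 6 libraries, as stacked bars from 0 to 100%. ADAM19 takes 23.0% to 26.4% for the control vector and 11.7%, 13.7% and 21.0% in ZEB1 replicates 1, 2 and 3, and ADAMTS8 is visible in ZEB1 replicate 3.

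Over the 6 libraries the members did not vary as a block: the 21 pairs of tested members had Pearson r in log2 CPM from -0.86 (ADAM12 with ADAM17) to 0.77 (ADAM15 with ADAM19). Among 5630 other genes averaging 100 or more counts, those most like ADAM19 were INHBA (r = 0.998), the activin subunit, FGFRL1 (r = 0.998), a decoy-type FGF receptor, and SART3 (r = 0.996). Their log2 fold changes were -0.73, -0.85 and -0.45. Those most like ADAM9, the member with the highest mean count, were CCDC12 (r = 0.973), TIMMDC1 (r = 0.969) and SAR1A (r = 0.966), with log2 fold changes of 0.064, 0.029 and 0.11. These coefficients describe 6 libraries that share depth and group, and the genes were the highest of many.

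Relatives, partners and substrates were described from 10 lists with 116 genes, all found in the table, and 0 of their 59 tested genes passed the edgeR threshold. At an unadjusted p of 0.05 edgeR had 1 of them higher (PCSK7) and 4 lower (THSD4, SDC4, HBEGF and FN1), against 5.83% and 3.57% of all tested genes. Limma-voom called 0 of them (0.512% of all tested genes). DESeq2, which gave an adjusted p to 2544 genes only, called 1 listed gene, SDC4 (6.68% of those 2544). Of 15 other ADAM genes 1 was tested, ADAM11, a family member without protease activity, with a log2 fold change of 0.38 (SE 0.59), and no untested gene exceeded 17 counts in a library. Of 15 other ADAMTS genes 4 were tested, 1 higher and 3 lower (51.5% of all tested genes were lower). ADAMTS12, which cuts COMP, had 29.4, 32.3 and 24.6 CPM in control libraries against 7.997, 18.6 and 26.5 CPM in ZEB1 libraries, a log2 fold change of -0.62 (SE 0.36, edgeR adjusted p 0.626). ZEB1 replicate 3 lay within its control range. The log2 fold change was 0.25 (SE 0.31) for ADAMTS6 and -1.08 (SE 1.05) for ADAMTS16. Of the 7 ADAMTS-like genes, which lack the protease domain, THSD4 was tested. It had 19.9, 13.7 and 21.2 CPM in control libraries against 2.67, 12.2 and 10.1 CPM in ZEB1 libraries. These groups did not overlap, as for the 8.16% of tested genes that lay wholly below. Its log2 fold change was -1.06 (SE 0.45, edgeR adjusted p 0.470).

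Of 6 endogenous inhibitors 4 were tested, 2 higher and 2 lower, and 0 passed. TIMP3, the TIMP that blocks ADAM17 and the aggrecanases, had 66.8 ± 8.43 CPM in control libraries against 68.0 ± 7.94 CPM in ZEB1 libraries (SD, n = 3), a log2 fold change of 0.026 with a 95% interval of -0.39 to 0.45. The log2 fold change was -0.13 (SE 0.15) for TIMP1 and -0.29 (SE 0.18) for TIMP2. TIMP2 had 148.0, 131.1 and 133.7 CPM in control libraries against 81.7, 128.6 and 123.3 CPM in ZEB1 libraries, with ZEB1 replicate 1 the lowest. These groups did not overlap, as for the 8.16% of tested genes that lay wholly below, and the edgeR adjusted p was 0.663. RECK, a membrane-anchored inhibitor named after its values were seen, had 30, 13 and 20 counts for the control vector and 2, 31 and 7 for the ZEB1 vector. Its log2 fold change was 1.16, with a 95% interval of -0.63 to 2.95 and an edgeR adjusted p of 0.736. Per TIMP3 count, ADAM17 had 0.574, 0.451 and 0.476 counts for the control vector and 0.563, 0.583 and 0.593 for the ZEB1 vector, which overlapped. Of the proprotein convertases, which remove the inhibitory prodomain, FURIN had a log2 fold change of -0.15 (SE 0.26) and PCSK7 0.82 (SE 0.38, edgeR adjusted p 0.513). PCSK7 had 16.7, 21.9 and 13.2 CPM in control libraries against 34.7, 44.4 and 15.2 CPM in ZEB1 libraries, and replicate 3 again lay within the control range.

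Carriers that bring ADAM17 and ADAM10 to the surface, the iRhoms and TspanC8 tetraspanins among them, had 7 of 9 genes tested, of which 2 were higher and 5 lower, and the median was -0.44. Over all tested genes 51.5% were lower and the median was -0.014. At an unadjusted edgeR p of 0.05 there were 0 carriers higher and 0 lower. The most counted were TSPAN14 (-0.44, SE 0.28), TSPAN17 (-0.29, SE 0.23) and TSPAN5 (0.046, SE 0.37). TSPAN14 had 63.0, 60.7 and 56.1 CPM in control libraries against 20.4, 40.5 and 65.5 CPM in ZEB1 libraries, highest of all in replicate 3. The subunits of gamma-secretase, which cuts the membrane stub that a sheddase leaves, had 5 of 6 genes tested and a median of -0.033. Among them NCSTN had a log2 fold change of 0.0058, APH1A -0.040 and PSENEN -0.33.

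Known substrates of ADAM10 and ADAM17 had 26 of 38 genes tested, 8 of them higher and 18 lower (69.2% lower against 51.5% of all tested genes), with a median of -0.12. In 7 of the 26 all ZEB1 libraries lay below all controls, CD44, HBEGF, CDH2, AXL, SDC1, SDC4 and EPHA2, where the share over all tested genes was 8.16%. Of these, CD44 and CDH2 were named for their mean counts, and HBEGF and SDC4 for an unadjusted edgeR p under 0.05. AXL, SDC1 and EPHA2 were named for that pattern after their values were seen. The list was chosen with earlier results of these data known, and the shares over all genes were not matched for counts. Whether the list differs from other genes was not tested. SDC4, a heparan sulfate proteoglycan of the cell surface, had 333.1, 273.3 and 279.7 CPM in control libraries against 164.4, 202.6 and 237.4 CPM in ZEB1 libraries, a log2 fold change of -0.54 (SE 0.16, edgeR adjusted p 0.239). HBEGF, an EGF receptor ligand released by shedding, had 61.4, 60.5 and 67.7 CPM in control libraries against 34.7, 28.3 and 53.6 CPM in ZEB1 libraries, a log2 fold change of -0.66 (SE 0.25, edgeR adjusted p 0.363). Both passed without ZEB1 replicate 3 (adjusted p 0.0233 and 0.0280), where 3.38% of genes passed, and DESeq2 called SDC4 (adjusted p 0.0403), as it did 6.68% of the genes to which it gave an adjusted p. CD44, CDH2 and PRNP, the most counted substrates, stood at log2 fold changes of -0.16, -0.27 and 0.11, with SE 0.14, 0.15 and 0.16.

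Notch targets, a readout downstream of ADAM10, had 4 of 6 genes tested, 1 higher and 3 lower (51.5% of all tested genes were lower), and 0 at an unadjusted p of 0.05 in edgeR. HES1 had 198.2 ± 24.2 CPM in control libraries against 215.1 ± 41.0 CPM in ZEB1 libraries (SD, n = 3), a log2 fold change of 0.11, while HES4 and HEY1 had -0.50 (SE 0.27) and -0.43 (SE 0.78). Of 10 ADAMTS substrates 5 were tested and all 5 had a log2 fold change below 0, with a median of -0.23. Over all tested genes 51.5% were below 0 and the median was -0.014. Of the 5 substrates 1 had an unadjusted edgeR p under 0.05, FN1. Fibronectin (FN1) had 851.1, 777.0 and 895.2 CPM in control libraries against 601.6, 730.5 and 671.7 CPM in ZEB1 libraries. These groups did not overlap, as for the 8.16% of tested genes that lay wholly below. Its log2 fold change was -0.33 (SE 0.15, edgeR adjusted p 0.485). BGN and TFPI2 had -0.39 (SE 0.22) and -0.044 (SE 0.17), and ACAN, the substrate after which the aggrecanases are named, had at most 7 counts in a library.

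**Figure D5:**
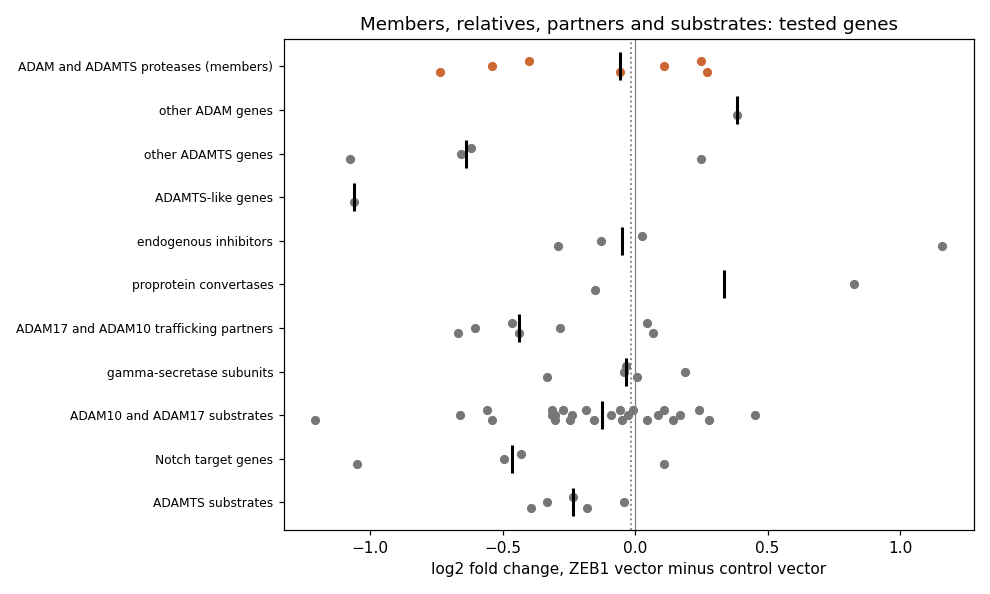
Log2 fold change (ZEB1 vector minus control vector) of each tested gene in the member list (orange) and 10 related lists (grey), with the list median as a black bar and the median of all tested genes as a dotted line. Substrates of ADAM10 and ADAM17 hold 18 genes below 0 and 8 above, with a median of -0.12 (51.5% of all tested genes were below 0). The lists were chosen with earlier results of these data known, and no list was tested as a set.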

How the data were processed

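The authors deposited raw counts per Entrez gene ID for the 6 libraries. The submitters' processing notes list HISAT2, Subread, featureCounts and GRCh38, with no version or role. Not given in the sources used here are the annotation release, the strand setting and any collapsing of molecular identifiers; without collapsing, reads are not independent. Symbols and coordinates came from RefSeq (GRCh38.p14), where 27745 IDs had an entry and 650 had none.

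The test was run in edgeR 4.0.16 under R 4.3.3 (quasi-likelihood, robust, TMM, filterByExpr, group as the only term). P-values are two-sided and Benjamini-Hochberg adjusted over all 11329 tested genes at a threshold of 0.05. Standard errors are approximate, being derived from each F statistic. Log2 CPM used a prior count of 2. The steps were tested on simulated data. DESeq2 1.42.0 and limma 3.58.1 were alternatives, as were scaling, filters, thinning, the replicate number as a block and leaving out libraries.

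The members and lists were chosen with earlier results of these data known. Named were ZEB1, all members, in each other list the up to 3 tested genes with the highest mean count, any past the threshold and, where 5 or fewer, those with an unadjusted p under 0.05, and the 3 genes most like ADAM9 and ADAM19 by Pearson r.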

Additional observations from a re-analysis of the deposited data

How the results depend on the processing

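How many genes passed depended on the tool, on the low-count filter and on ZEB1 replicate 3. Over all genes edgeR called 1, DESeq2 170, limma-voom 58, limma-voom with quality weights 154 (an alternative chosen after seeing the data), and edgeR without a filter on low counts 127. On leaving out single libraries edgeR called 1 to 409, with 409 of 12095 without ZEB1 replicate 3. Of the members 1 was called without a filter (ADAMTS8), and 0 to 1 on leaving out single libraries (ADAM19 without ZEB1 replicate 3). ADAM19 had log2 fold changes of -0.95 to -0.59 on leaving out single libraries. ADAM9 turned negative with library size only (-0.023) and in limma-voom (-0.015), and ranged from -0.20 to 0.37 on leaving out single libraries. ADAMTS1 turned positive in limma-voom (0.065) and with quality weights (0.028), and ranged from -0.37 to 0.25 on leaving out single libraries. The cause was not tested. Without ZEB1 replicate 3, chosen after seeing the data for the members too low to test, the ratio of summed counts (ZEB1 over control) went from 1.54 to 2.21 for ADAMTS5 and from 45.8 to 0 for ADAMTS8, whose ZEB1 counts lie in that library. ADAM10, ADAM12, ADAM15, ADAM17 and ADAM19 kept their direction in 17 of 17 alternatives. Library size as the only scaling moved the median of all genes from -0.014 to -0.14, and turned the split at an unadjusted p under 0.05 from 660 higher and 405 lower to 347 higher and 807 lower. With the replicate number as a block edgeR called 1 gene, and ADAM19 had -0.77 (adjusted p 0.348). The labels do not say whether same-numbered libraries share more than a number. Deviations of same-numbered libraries correlated at -0.032, -0.0095 and 0.0087, and those of differently numbered ones at -0.048 to 0.046. With so few libraries per vector these values cannot decide it. DESeq2 gave none of the 7 tested members an adjusted p, so that it yields no count of members called, and its unadjusted p for ADAM19 was 0.00326. Low counts kept ADAMTS4, ADAMTS5 and ADAMTS8 out of the main test, and ADAM15 had 8, 12 and 36 counts in ZEB1 replicates 1, 2 and 3. Whether depth or a lack of transcript lies behind the low counts was not tested.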
